A study of Rattus with 27 samples.

Results

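Brain gene expression was compared between rats labelled vehicle and rats labelled model, 6 h into an experiment on cerebral ischaemia. The comparison rests on 6 of the 27 arrays of the series, taken by their titles: the brains of vehicle-labelled rats 2, 4 and 5 and of model-labelled rats 1, 2 and 3. The brains of sham-operated rats 3, 4 and 5 were measured on a further 3 arrays and serve here as the sham level and, with the others, to estimate the spread. All rats were Sprague Dawley, their age is not given in the labels, and each brain array stands for 1 rat. The vehicle-labelled and the model-labelled rats had both undergone occlusion of the middle cerebral artery (MCAO), which cuts the blood supply to a large territory of cortex and striatum on the operated side and serves as a model of stroke. The sham rats had received anaesthesia and had their vessels exposed, with no occlusion. According to the treatment protocol, operated rats formed a vehicle control and a YJ group dosed at 25 mg/kg (YJ stands for the Yiqi Jiedu formulae that the series is named after), whereas the titles name model and vehicle. The labels do not say which of them received YJ, so the differences below are between labelled groups and cannot be read as the effect of the formula or of its vehicle. RNA came from homogenate of the brain, with no separation of the ischaemic from the intact side. Of the 27596 probes on the array, 15310 carried exactly 1 gene symbol, and keeping 1 probe per gene left 14506 genes, all of which entered the test. Differences are vehicle minus model on a log2 scale, so that 1 unit is a doubling of the array signal.

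Interrupted blood flow depolarizes neurons and sets off waves of calcium entry, to which neurons and glia answer by transcribing immediate early genes. These genes need no new protein to be switched on, and they encode transcription factors such as Fos and Egr proteins, feedback inhibitors such as the MAP kinase phosphatases, and secreted effectors. In the hours that follow, injured tissue makes cytokines of the IL-6 family, which signal through the receptor subunit gp130 and the factor STAT3, and chaperones of the heat shock response, which bind misfolded proteins. Vessels and meninges respond with proteases, coagulation regulators and matrix genes. Because the samples were homogenates, fewer cells of a type and less RNA per cell cannot be told apart.

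The tissue label was checked against genes of neural cells. Slc1a2, the main astrocyte glutamate transporter, measured between 10.57 and 11.66 in the 9 brain arrays and between 3.97 and 4.58 in the 18 arrays of white blood cells and spleen, and Mobp, a myelin protein gene, measured at least 7.90 in every brain array and at most 4.14 in the others. Among the brain arrays, vehicle 2 and sham 5 stood apart. Slc17a7, the vesicular glutamate transporter of cortical excitatory neurons, measured 7.28 in vehicle 2, against 10.89 and 10.70 in vehicle 4 and 5, 10.91, 10.47 and 11.02 in the model brains and 11.01, 11.12 and 5.10 in the sham brains. The 7 measured cortical neuron markers, averaged relative to the sham mean, lay at -1.16 in vehicle 2 and -1.69 in sham 5 and between 0.30 and 0.97 in the other 7 brain arrays. Slc17a6, of the hypothalamic and thalamic markers, measured 9.03 in vehicle 2 and 8.96 in sham 5, against 4.07 to 5.86 in the other 7 brain arrays. Pmch, a hypothalamic neuropeptide gene, measured 11.34 in sham 5 and at most 3.87 in every other brain array. Whether the sampled region differed between brain arrays was not tested. Over the genes tested, vehicle 2 correlated with vehicle 4 and 5 at r = 0.974 each across genes, and vehicle 4 with vehicle 5 at r = 0.993. Vehicle 2 correlated with sham 5 at r = 0.980. The comparison is therefore also given without vehicle 2 and sham 5. The labels give no date or batch for the arrays, and array handling and group cannot be told apart where they coincide.

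Vehicle-labelled brains differed from model-labelled brains in 8 called genes, of which 7 were lower and 1 was higher in vehicle-labelled brains. The lower genes were the transcription factor gene Egr2, the cytokine genes Lif and Il11, and Gprc5a, Plscr2, Phlda1 and Enpp3. The higher gene was Rab39a. The call rule was an adjusted p under 0.05 in limma's moderated test across the 14506 genes, and the 8 calls are 0.0551% of the genes tested (0.00689% higher and 0.0483% lower). Scaling changed this split: 4 of 13 calls were higher after quantile normalization and 2 of 7 after median centring. The median difference over all genes was -0.01.

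Egr2 is a zinc finger factor of the immediate early class that is also required for myelination of peripheral nerve. Its log2 signal was 3.83, 4.74 and 4.53 in vehicle-labelled brains 2, 4 and 5, against 7.56, 6.52 and 6.80 in model-labelled brains 1, 2 and 3 and 4.35, 4.22 and 3.62 in sham brains. The vehicle values overlapped those of sham, and every model value lay above both groups. Egr2 fell by 2.59 ± 0.32 (SE; adjusted p = 0.0310). Its vehicle and sham values lay below the medians of the brain arrays (5.09 to 5.24), and whether they were above background was not analysed here. Phlda1, an early gene with a pleckstrin homology-like domain, measured 7.33, 7.56 and 7.31 in vehicle-labelled brains, against 8.58, 8.44 and 8.75 in model-labelled brains and 6.84, 6.82 and 6.65 in sham brains. The 3 groups did not overlap for this gene, vehicle lying between the other two. Phlda1 fell by 1.19 ± 0.13 (adjusted p = 0.0310).

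Lif, or leukaemia inhibitory factor, and Il11 are secreted ligands that signal through gp130. Lif measured 4.96, 5.50 and 5.08 in vehicle-labelled brains, against 6.36, 7.03 and 7.31 in model-labelled brains and 5.05, 5.03 and 4.98 in sham brains. It fell by 1.72 ± 0.23 (adjusted p = 0.0452). Il11 measured 4.86, 5.08 and 5.00 in vehicle-labelled brains, against 5.86, 5.77 and 5.77 in model-labelled brains and 4.85, 4.87 and 4.75 in sham brains. For both cytokines the vehicle and sham arrays overlapped and the model arrays stood above them. The vehicle and sham values of Il11 lay below the medians of the brain arrays (5.09 to 5.24). Il11 fell by 0.82 ± 0.10 (adjusted p = 0.0351).

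Gprc5a encodes an orphan G protein-coupled receptor first known as a retinoic acid-induced gene. It measured 3.56, 3.26 and 3.34 in vehicle-labelled brains, against 5.29, 4.64 and 5.15 in model-labelled brains and 3.43, 2.98 and 3.07 in sham brains, and fell by 1.64 ± 0.19 (adjusted p = 0.0310). Plscr2, of the phospholipid scramblase family, measured 3.63, 3.87 and 3.82 in vehicle-labelled brains, against 5.21, 5.67 and 5.20 in model-labelled brains and 3.81, 4.14 and 3.49 in sham brains, and fell by 1.59 ± 0.19 (adjusted p = 0.0310). Enpp3, an ectonucleotide pyrophosphatase found on basophils and mast cells among other cells, measured 4.32, 4.81 and 4.71 in vehicle-labelled brains, against 5.68, 5.86 and 5.77 in model-labelled brains and 4.45, 4.61 and 4.66 in sham brains, and fell by 1.16 ± 0.14 (adjusted p = 0.0310). For these 3 genes the vehicle and sham arrays overlapped. Their vehicle and sham values lay below the medians of the brain arrays (5.09 to 5.24), and whether they were above background was not analysed here. Of the 7 genes that fell, all had their model arrays above sham without overlap (11.7% of all genes), and 6 had vehicle arrays that overlapped sham. The 7 genes were selected for lying lower in vehicle than in model, which favours this pattern. Vehicle arrays stood above sham without overlap in 7.93% of all genes, so the overlap with sham is no result particular to the called genes. Rab39a, a small GTPase of endosomal and phagosomal traffic, had the opposite pattern, at 7.18, 7.27 and 7.42 in vehicle-labelled brains, against 6.33, 6.41 and 6.26 in model-labelled brains and 6.44, 6.68 and 6.64 in sham brains. It rose by 0.96 ± 0.12 (adjusted p = 0.0310), and its vehicle arrays stood above both other groups.

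**Figure D1:**
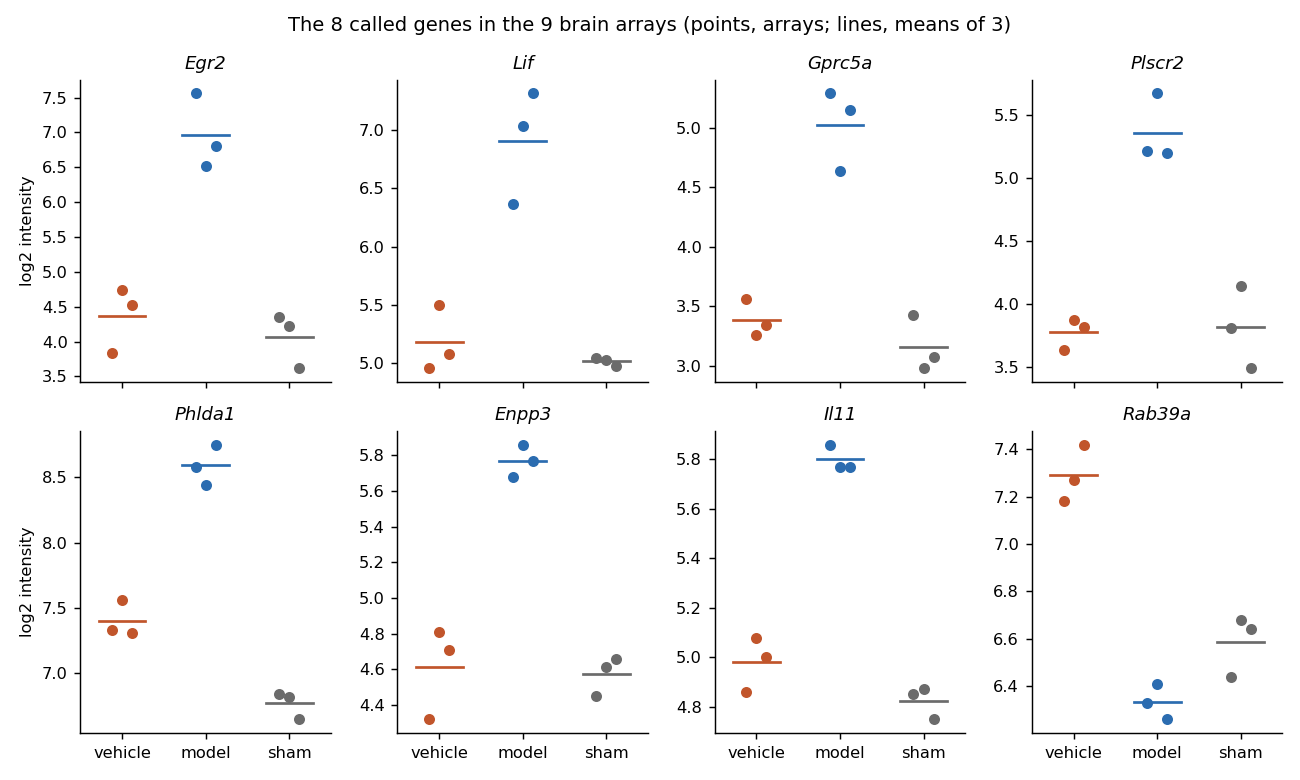
Log2 array signal (vertical axes, a separate range for each gene) of the 8 called genes in vehicle-labelled, model-labelled and sham brains (horizontal axis); points are arrays of 1 rat each and lines are means of 3. For the 7 lower genes the vehicle points lie with or near the sham points and the model points lie above both, while Rab39a stands highest in the vehicle brains.

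The calls depended on which arrays were in the fit. No gene was called without any single one of vehicle 2, vehicle 5, model 3, sham 3 or sham 4, where between 1666 and 2053 genes had an unadjusted p under 0.05, and 1 gene was called without model 1. Without sham 5 the count was 40, and without vehicle 2 and sham 5 together it was 63 (0.434% of genes; 31 higher, 0.214%, and 32 lower, 0.221%), which included all 8 genes. Beyond the calls, 2080 genes (14.3%) had an unadjusted p under 0.05, 1034 higher (7.13%) and 1046 lower (7.21%). The 3 vehicle and 3 model arrays did not overlap for 1457 genes higher in vehicle (10.0%) and 1663 genes lower in vehicle (11.5%), and counts within gene lists are set against these shares below.

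Immediate early genes were the list with the most negative median. Of 47 measured members 46 had a lower mean in vehicle-labelled than in model-labelled brains, and 2 of them, Egr2 and Phlda1, fell at an adjusted p under 0.05. The median difference was -1.07, beside -0.01 for all genes. For 33 of the 47 (70.2%) all vehicle arrays lay below all model arrays, beside 11.5% of all genes, and for none did all lie above. Model arrays stood above sham without overlap for 40 of the 47 (11.7% of all genes), and vehicle arrays did so for 19 (7.93% of all genes). These counts share arrays with each other. Without vehicle 2 the mean was lower in 39 of the 47 and higher in 8, which were Klf10, Homer1, Atf3, Dusp2, Jun, Gadd45b, Ier5 and Plk3. Without vehicle 2 and sham 5 the median was -0.91, and 33 members lay below model without overlap in the arrays that remained, beside 17.0% of all genes. In that fit 16 of the 47 were called lower, beside 0.221% of all genes, whereas without vehicle 2 alone no gene was called.

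Among these genes the Egr and Nr4a factors, which are zinc finger and orphan nuclear receptor factors switched on by calcium and growth factor signals, had a median of -1.67, and in all 7 the vehicle arrays lay below the model arrays. Nr4a1 measured 7.81, 8.60 and 7.70 in vehicle-labelled brains, against 10.55, 9.85 and 10.04 in model-labelled brains and 7.43, 7.40 and 5.11 in sham brains, a difference of -2.11 ± 0.55 (adjusted p = 0.183). Egr1 measured 8.98, 9.21 and 9.17 in vehicle-labelled brains, against 10.84, 10.10 and 10.54 in model-labelled brains and 8.70, 8.87 and 6.78 in sham brains, a difference of -1.37 ± 0.46 (adjusted p = 0.254). In both genes sham 5 was the lowest array. Without vehicle 2 and sham 5 Nr4a1 differed by -2.0 (adjusted p = 0.0168) and Egr1 by -1.30 (adjusted p = 0.0231). Nr4a3, Nr4a2, Egr4 and Egr3 differed by -1.67, -1.67, -1.39 and -1.27 (adjusted p between 0.121 and 0.202). For Nr4a2 the model arrays overlapped sham, which measured 9.38, 8.78 and 7.50, and the vehicle mean of 7.67 lay below the sham mean of 8.55.

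Npas4, a neuronal factor induced by synaptic activity, had the lowest difference of all genes tested. It measured 7.40, 7.74 and 7.75 in vehicle-labelled brains, against 10.95, 9.80 and 10.39 in model-labelled brains and 5.57, 5.63 and 4.24 in sham brains. The 3 groups were fully separated, and the difference of -2.75 ± 0.38 narrowly missed the threshold (adjusted p = 0.0503). Of the AP-1 subunits, the partners that form the Fos and Jun dimers, 4 of 8 lay below model without overlap. Fos measured 7.81, 7.28 and 6.85 in vehicle-labelled brains, against 9.89, 8.90 and 9.37 in model-labelled brains and 5.65, 5.60 and 4.89 in sham brains, a difference of -2.07 ± 0.31 (adjusted p = 0.0565). Junb differed by -1.75 ± 0.25 and Fosl2 by -1.19 ± 0.17 (adjusted p = 0.0503 each). Jun and Atf3 differed by -0.25 ± 0.32 and -0.43 ± 0.48 with overlapping arrays, and without vehicle 2 both directions turned, to 0.19 and 0.25. Atf3 measured 5.55, 7.98 and 7.19 in vehicle-labelled and 7.50, 7.41 and 7.09 in model-labelled brains, against 4.41, 4.66 and 4.32 in sham.

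The MAP kinase phosphatases, which switch off the kinases that induce the early genes, had a median of -1.11, and 5 of 6 lay below model without overlap. Dusp1 measured 8.60, 9.22 and 8.78 in vehicle-labelled brains, against 10.40, 9.95 and 10.32 in model-labelled brains and 8.24, 8.13 and 7.30 in sham brains. Its arrays fell into 3 separate groups, with a difference of -1.36 ± 0.26 (adjusted p = 0.106). Dusp6, Dusp5, Dusp4 and Dusp14 differed by -1.33, -1.30, -0.92 and -0.74, and Dusp2 by -0.06 (adjusted p between 0.0565 and 0.946). Without vehicle 2, Dusp14 differed by -0.43 and Dusp2 by 0.21.

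The effector genes of the list, 12 of 16 of them below model without overlap, hold secreted and synaptic proteins. Inhba, the subunit of activin A, measured 6.13, 6.31 and 5.86 in vehicle-labelled brains, against 8.84, 7.48 and 9.25 in model-labelled brains and 5.34, 5.82 and 5.02 in sham brains (difference -2.42 ± 0.40, adjusted p = 0.0778). Bdnf, the neurotrophin of activity-dependent plasticity, measured 4.27, 4.14 and 4.41 in vehicle-labelled brains, against 6.99, 5.53 and 5.54 in model-labelled brains and 4.43, 4.32 and 4.12 in sham brains (difference -1.75 ± 0.33, adjusted p = 0.107). For Bdnf the vehicle and sham arrays overlapped, at values below the medians of the brain arrays (5.09 to 5.24), whereas for Inhba vehicle lay above sham. Ccn1, a matrix protein gene, measured 5.35, 5.63 and 5.77 in vehicle-labelled brains, against 7.87, 6.74 and 7.51 in model-labelled brains and 5.06, 4.77 and 4.77 in sham brains (difference -1.79 ± 0.25, adjusted p = 0.0503). The prostaglandin synthase gene Ptgs2 and the synaptic gene Arc had wider spreads. Ptgs2 measured 6.01, 8.18 and 8.94 in vehicle-labelled brains, against 10.38, 8.61 and 10.17 in model-labelled brains (difference -2.01 ± 0.81, adjusted p = 0.309), and without vehicle 2 it differed by -1.16. Klf10, a TGF-beta-inducible factor, was the 1 member with a higher mean in the 3 vehicle-labelled brains (0.32 ± 0.42, adjusted p = 0.753). Klf10 measured 5.91, 7.76 and 7.52 in vehicle-labelled brains 2, 4 and 5, against 6.91, 6.85 and 6.47 in model-labelled brains. Vehicle 2 lay below every model array, and without it the difference was 0.90 (adjusted p = 0.0544 without vehicle 2 and sham 5).

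**Figure D2:**
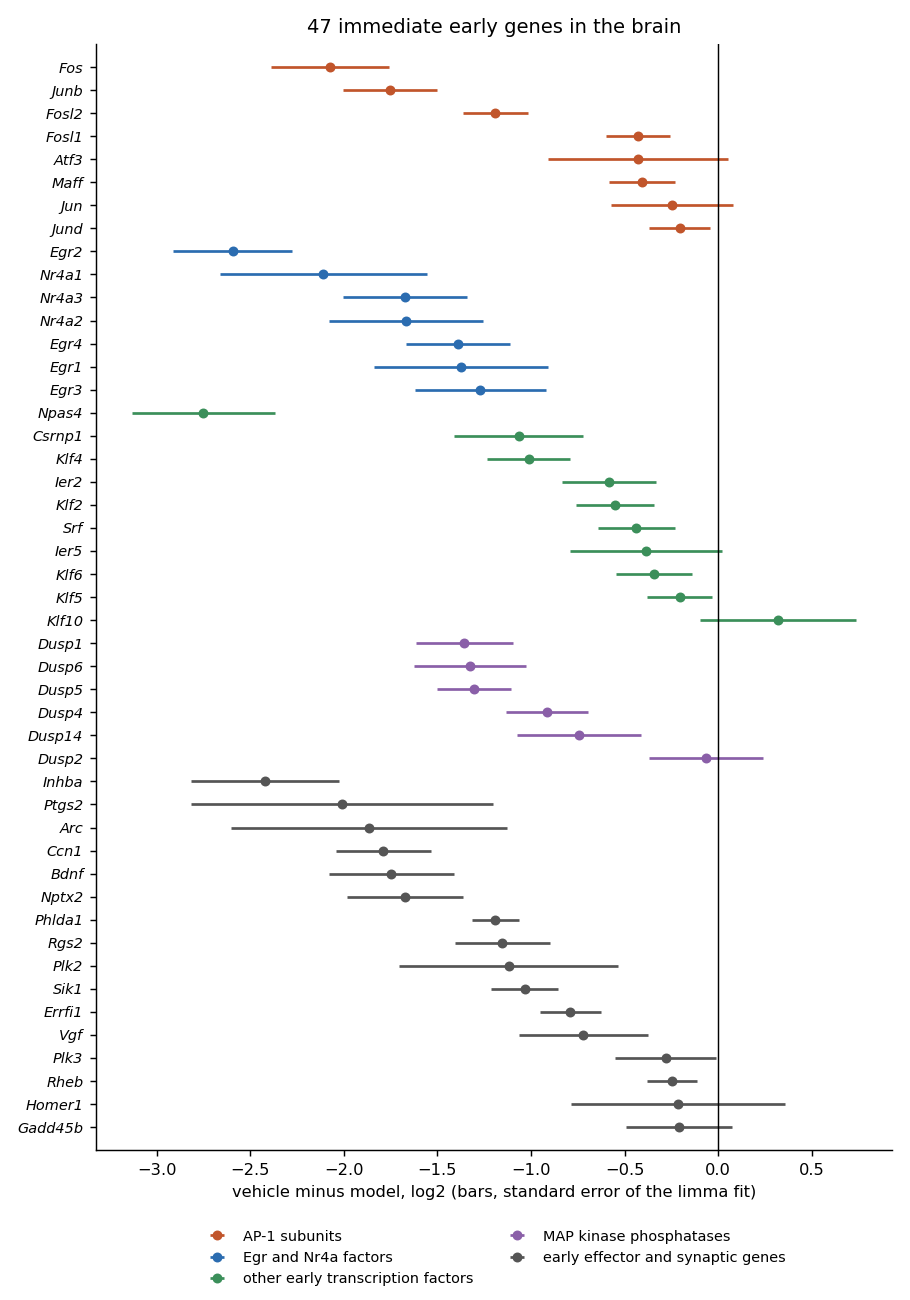
Difference between vehicle-labelled and model-labelled brains (horizontal axis, log2) for the 47 measured immediate early genes, coloured by role; points are differences of means of 3 arrays and bars are standard errors of the limma fit. All points but that of Klf10 lie left of 0, with Npas4, Egr2 and Inhba farthest out.

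The level of the early genes varied among the vehicle-labelled rats. Averaged over the 47 genes relative to the sham mean, it lay at 0.29, 0.96 and 0.77 in vehicle-labelled brains 2, 4 and 5, against 2.04, 1.48 and 1.70 in model-labelled brains 1, 2 and 3 and 0.24, 0.20 and -0.44 in sham brains. The lowest of the vehicle arrays was vehicle 2, the array with low cortical markers, and vehicle 4 and 5 still lay below every model array. The part of the cortical markers in the level of vehicle 2 was not tested.

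The list of the IL-6 family and its STAT3 feedback held both called cytokines. Of 24 measured members 2 fell (Lif and Il11), 12 (50.0%) lay below model without overlap and 1 above, and the median difference was -0.30. The ligands made up 5 of the 12. Il6 itself measured 2.99, 3.61 and 3.16 in vehicle-labelled brains, against 3.85, 4.57 and 3.99 in model-labelled brains and 2.63, 2.86 and 2.81 in sham brains, a difference of -0.88 ± 0.21 (adjusted p = 0.159). All of these are low signals for this array, and the 3 groups did not overlap. Ctf1 and Osm differed by -0.35 each, and Cntf, a ciliary neurotrophic factor of astrocytes, was the member above model (0.58 ± 0.20, adjusted p = 0.265).

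Of 6 receptor genes of the family 1 lay below model without overlap. This was Osmr, the oncostatin M receptor, which measured 4.64, 5.73 and 5.35 in vehicle-labelled brains, against 6.22, 6.45 and 6.65 in model-labelled brains and 4.46, 3.80 and 4.06 in sham brains (difference -1.20 ± 0.27, adjusted p = 0.146). The shared subunit gene Il6st differed by -0.20 ± 0.18. Among the genes that STAT3 induces, Timp1, an inhibitor of matrix metalloproteinases, measured 7.97, 9.73 and 9.11 in vehicle-labelled brains, against 10.56, 10.76 and 10.62 in model-labelled brains and 7.38, 6.60 and 7.04 in sham brains. All vehicle arrays were above sham and below model, with a difference of -1.71 ± 0.38 (adjusted p = 0.146). Socs3, the feedback inhibitor of gp130 signalling, differed by -1.10 ± 0.28 (adjusted p = 0.178) and the kinase gene Pim1 by -0.86 ± 0.14 (adjusted p = 0.0778). Without vehicle 2 and sham 5 Pim1 was called as well (-0.86, adjusted p = 0.0476), while Timp1 moved to -1.23 (adjusted p = 0.0585). Stat3 and Cebpd overlapped between the groups (-0.24 ± 0.23 and -0.15 ± 0.17), and without vehicle 2 they differed by 0.02 and 0.04.

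No member of the other inflammatory lists was called. Chemokine genes, 16 in number, had a median of -0.35, and 2 (12.5%) lay below model without overlap, close to the 11.5% of all genes. Ccl20 differed by -1.03 ± 0.32 and Ccl7 by -0.78 ± 0.28, with overlapping arrays in both. Their mean level relative to sham was 0.22, 1.21 and 0.93 in vehicle-labelled brains and 1.08, 1.65 and 0.99 in model-labelled brains, vehicle 2 being the lowest of the 6, and the median was -0.15 without it and -0.23 without model 2. Of 24 genes of the IL-1, TNF and NF-kappaB list 7 (29.2%) lay below model without overlap. Il1a, an alarm cytokine released by damaged cells, measured 3.08, 3.87 and 3.20 in vehicle-labelled brains, against 4.19, 5.05 and 3.91 in model-labelled brains and 3.04, 3.33 and 3.17 in sham brains (difference -1.0 ± 0.29, adjusted p = 0.215). Nfkbia, the inhibitor that NF-kappaB induces, differed by -0.51 ± 0.14. Markers of neutrophils and monocytes, 16 in number, had a median of -0.33, and 7 (43.8%) lay below model without overlap. Among them were Plac8 (-0.89 ± 0.26), Fn1 (-0.61 ± 0.19) and Ngp (-0.45 ± 0.17). The remaining markers overlapped, among them Ccr2 (0.06 ± 0.43), Fpr1 (0.05 ± 0.18) and Camp (0.05 ± 0.19). Ngp measured between 3.21 and 4.16 in the brain arrays, below the medians of those arrays (5.09 to 5.24). The mean level of the 16 markers relative to sham was between 0.04 and 0.48 in vehicle-labelled brains, against 0.56 to 0.84 in model-labelled brains. Their part in the cytokine differences was not tested. Of 13 microglia markers 1 lay below and 1 above model without overlap.

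No gene of the vessel and coagulation lists was called. Of 12 fibrinolysis and anticoagulant genes 7 (58.3%) lay below model without overlap, with a list median of -0.49. Procr, the endothelial receptor of protein C, measured 5.44, 5.81 and 5.41 in vehicle-labelled brains, against 6.26, 6.78 and 6.36 in model-labelled brains and 5.34, 5.28 and 5.29 in sham brains (difference -0.91 ± 0.16, adjusted p = 0.0865). Plat, the tissue plasminogen activator that dissolves clots, measured 8.27, 9.03 and 8.45 in vehicle-labelled brains, against 9.48, 9.40 and 9.64 in model-labelled brains and 7.52, 7.47 and 7.98 in sham brains (difference -0.92 ± 0.21, adjusted p = 0.146). In both genes the vehicle arrays lay between sham and model. Tfpi2, a protease inhibitor of the matrix, had a wider spread, at 4.28, 6.51 and 4.15 in vehicle-labelled brains, against 6.83, 7.53 and 7.18 in model-labelled brains and 3.50, 3.41 and 3.73 in sham brains (difference -2.20 ± 0.52, adjusted p = 0.156).

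Of 13 endothelial activation genes 5 (38.5%) lay below model without overlap. The remaining members overlapped, with differences up to 0.20. The list median was -0.22, and -0.06 without model 2. Apold1, an early gene of endothelial cells, measured 5.02, 6.54 and 5.81 in vehicle-labelled brains, against 7.20, 7.12 and 6.87 in model-labelled brains and 4.22, 4.26 and 4.32 in sham brains (difference -1.27 ± 0.30, adjusted p = 0.159). Edn1, the vasoconstrictor endothelin, differed by -0.86 ± 0.17, and the matrix proteases Adamts1 and Adamts9 by -0.99 ± 0.21 and -0.82 ± 0.17. Markers of the vessel and meningeal cells themselves had a median of -0.26, which was -0.12 without model 3 and -0.16 without vehicle 4. Of 25 such markers 10 (40%) lay below model without overlap. The VEGF receptor gene Kdr measured 4.88, 5.14 and 4.99 in vehicle-labelled brains, against 5.54, 5.84 and 5.85 in model-labelled brains and 5.23, 5.14 and 5.31 in sham brains (difference -0.74 ± 0.13, adjusted p = 0.0816), whereas the tight junction gene Cldn5 differed by 0.16 ± 0.12. Col1a1, a fibroblast collagen gene, measured 6.95, 7.38 and 7.25 in vehicle-labelled brains, against 8.42, 9.22 and 7.84 in model-labelled brains and 7.69, 7.50 and 7.25 in sham brains (difference -1.30 ± 0.30, adjusted p = 0.146). The 6 meningeal markers lay at -0.21, -0.17 and -0.15 relative to sham in vehicle-labelled brains and at 0.36, 0.82 and 0.38 in model-labelled brains, while the sham arrays spread from -0.44 to 0.44. Their part in the differences of the vascular lists was not tested.

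**Figure D3:**
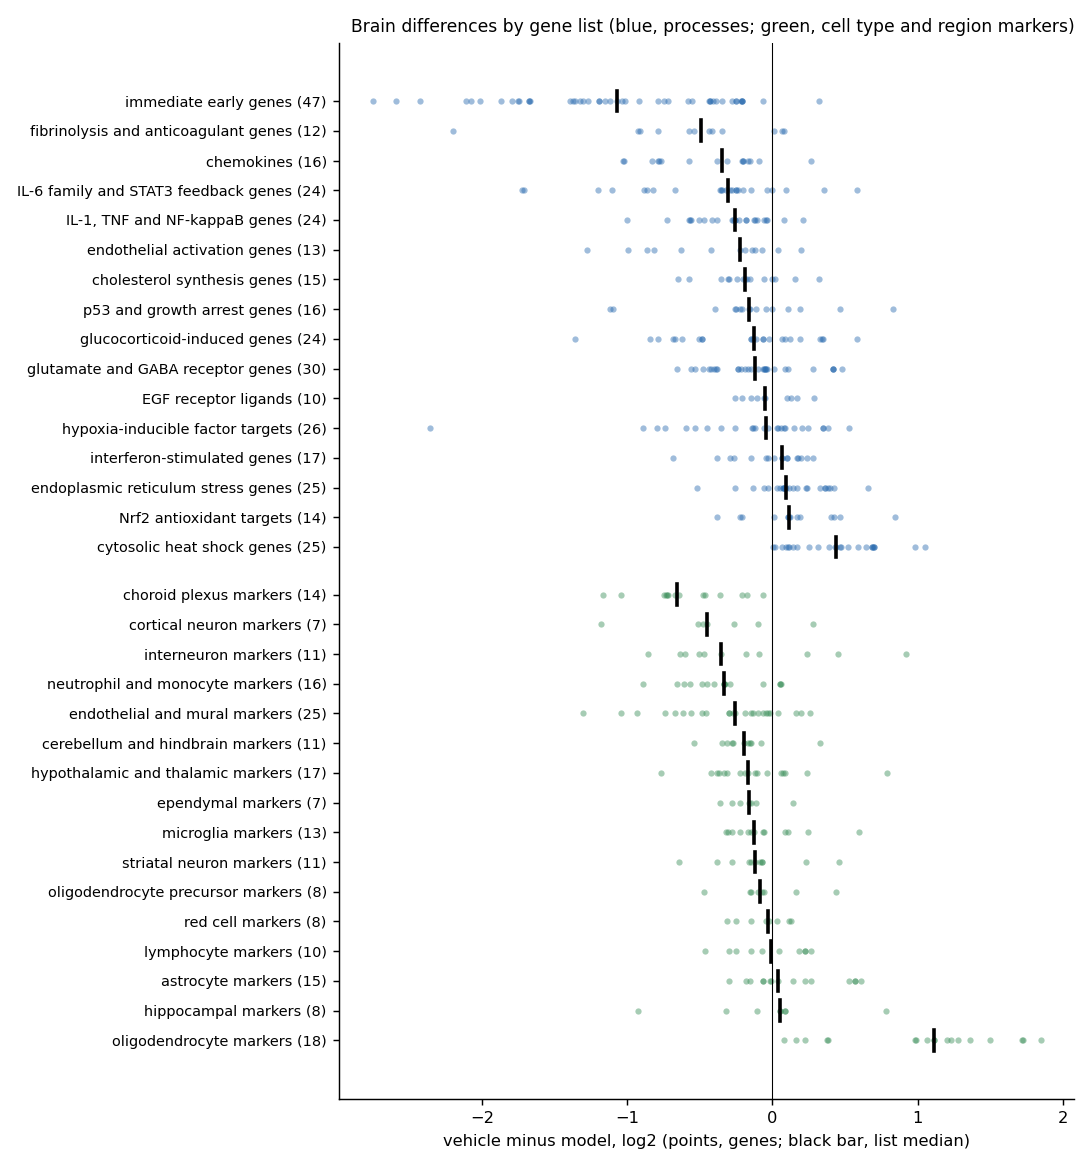
Difference between vehicle-labelled and model-labelled brains (horizontal axis, log2) for every measured member of 16 process lists (blue) and 16 lists of cell type or region markers (green), with the number of genes in parentheses and the list median as a black bar. Immediate early genes lie farthest to the left and oligodendrocyte markers farthest to the right.

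Cytosolic heat shock genes ran in the other direction. All 25 measured members had a higher mean in vehicle-labelled brains, with a median of 0.44 (24 of 25 without vehicle 2), and 9 (36.0%) lay above model without overlap, beside 10.0% of all genes. None was called. Chordc1, an Hsp90 co-chaperone, measured 8.96, 8.86 and 8.74 in vehicle-labelled brains, against 7.51, 8.17 and 7.73 in model-labelled brains and 7.19, 7.75 and 8.09 in sham brains (difference 1.05 ± 0.23, adjusted p = 0.146). Cryab, a small heat shock protein that is also abundant in oligodendrocytes, measured 9.23, 9.02 and 8.92 in vehicle-labelled brains, against 7.83, 8.19 and 8.21 in model-labelled brains and 7.85, 7.16 and 8.07 in sham brains (difference 0.98 ± 0.22, adjusted p = 0.146). In these genes the model and sham arrays overlapped and the vehicle arrays stood above both.

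Hsp90 and its co-chaperones held 5 of the 9 separated genes: Chordc1, Fkbp4 (0.70 ± 0.15), Stip1 (0.68 ± 0.17), Ptges3 (0.43 ± 0.18) and the inducible Hsp90aa1 (0.39 ± 0.12). Hspb1, the small heat shock protein Hsp27, measured 6.72, 8.57 and 8.94 in vehicle-labelled brains, against 7.07, 8.31 and 7.29 in model-labelled brains and 4.93, 4.48 and 4.86 in sham brains (difference 0.52 ± 0.52, adjusted p = 0.671). Both operated groups stood above sham there and overlapped each other. Hsph1, of the Hsp110 family, measured 9.56, 10.48 and 10.69 in vehicle-labelled brains, against 9.54, 9.81 and 9.44 in model-labelled brains and 8.35, 8.35 and 8.69 in sham brains (difference 0.65 ± 0.26, adjusted p = 0.314). Vehicle 2 was the lowest vehicle array for Hspb1 and Hsph1. Without it Hspb1 differed by 1.20, and without vehicle 2 and sham 5 Hsph1 was called higher (0.99, adjusted p = 0.0228). Without vehicle 2, 21 of the 25 genes lay above model without overlap, beside 15.6% of all genes, and the list median was 0.59. The regulators Hsf1 and Hsf2 differed by 0.02 ± 0.15 and 0.00 ± 0.29, and by -0.12 and 0.22 without vehicle 2. The inducible Hsp70 genes Hspa1a and Hspa1b were not analysed here.

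Other stress programmes were closer to the background. Of 25 endoplasmic reticulum stress genes 6 (24.0%) lay above model without overlap, led by Herpud1, a component of protein degradation at that organelle (0.66 ± 0.15, adjusted p = 0.146), and by the factor Xbp1 (0.36 ± 0.11). Of 14 Nrf2 targets 4 (28.6%) lay above and 2 below. Gclm, a subunit of the enzyme that starts glutathione synthesis, measured 7.38, 7.40 and 7.34 in vehicle-labelled brains, against 6.22, 6.77 and 6.60 in model-labelled brains and 7.14, 7.38 and 7.40 in sham brains, so the model arrays were the low ones (difference 0.84 ± 0.15, adjusted p = 0.0869). Targets of the hypoxia-inducible factor lay below model without overlap in 6 of 26 genes (23.1%) and above in 2. Their median was -0.04, and -0.002 without vehicle 2, where 12 members had a higher and 14 a lower mean. No direction is therefore given for the list. Stc1, the hormone stanniocalcin, measured 5.15, 6.85 and 5.22 in vehicle-labelled brains, against 8.05, 7.72 and 8.51 in model-labelled brains and 4.19, 4.43 and 4.54 in sham brains (difference -2.35 ± 0.40, adjusted p = 0.0816). Slc2a1, the glucose transporter of the blood-brain barrier, differed by -0.80 ± 0.14 (adjusted p = 0.0865).

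Oligodendrocyte markers had the highest median of the lists, at 1.11. All 18 measured markers had a higher mean in vehicle-labelled brains (16 of 18 without vehicle 2), 9 (50.0%) lay above model without overlap, and none was called. Mobp measured 11.12, 10.20 and 10.42 in vehicle-labelled brains, against 8.89, 7.90 and 9.79 in model-labelled brains and 9.59, 9.12 and 10.03 in sham brains (difference 1.72 ± 0.44, adjusted p = 0.178). Ugt8, the enzyme that makes the myelin lipid galactocerebroside, measured 9.24, 8.45 and 8.56 in vehicle-labelled brains, against 6.64, 5.95 and 8.11 in model-labelled brains and 8.0, 7.65 and 8.66 in sham brains (difference 1.85 ± 0.49, adjusted p = 0.183). The model brains were uneven, with model 3 close to the vehicle and sham brains and model 1 and 2 well below. Cnp, a myelin enzyme gene, had a narrower spread, at 9.52, 9.22 and 9.38 in vehicle-labelled brains, against 7.91, 7.79 and 8.72 in model-labelled brains and 8.68, 8.41 and 9.10 in sham brains (difference 1.23 ± 0.25, adjusted p = 0.129).

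Averaged over the 18 markers and relative to sham, the level was 0.96, 0.10 and 0.34 in vehicle-labelled brains 2, 4 and 5 and -0.74, -1.02 and 0.12 in model-labelled brains 1, 2 and 3, and the sham brains spread from -0.33 to 0.33. Vehicle 2, with its low cortical markers, held the highest level. Without vehicle 2 and sham 5 the median was 0.91, without model 2 it was 0.79 and without model 3 it was 1.51. The members were not alike: Mbp, the gene of myelin basic protein, differed by 0.08 ± 0.18 and the factor gene Sox10 by 0.22 ± 0.22 (-0.08 without vehicle 2). The 8 measured markers of oligodendrocyte precursors had a median of -0.085, which was 0.049 without vehicle 4, so no direction is given for them. Among them Pdgfra, their receptor for platelet-derived growth factor, differed by -0.47 ± 0.14, and Gpr17 by 0.44 ± 0.20.

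Oligodendrocyte markers were among the genes with the largest positive differences. The 12 largest among genes with an unadjusted p under 0.01 and no overlap were Gpd1, Ugt8, Evi2a, Ermn, Mobp, Aspa, Bcas1, Nefh, Enpp6, Mal, Olig1 and Pou3f4, of which Ugt8, Ermn, Mobp, Aspa and Olig1 are list members. Gpd1, the glycerol phosphate dehydrogenase that oligodendrocytes express strongly, measured 9.90, 9.16 and 9.35 in vehicle-labelled brains, against 7.66, 6.85 and 8.16 in model-labelled brains and 8.67, 8.22 and 8.98 in sham brains. Its model arrays lay below sham and its vehicle arrays above sham, and the difference was 1.91 ± 0.33 (adjusted p = 0.0816). Nefh, the heavy neurofilament chain of large axons, measured 8.30, 7.86 and 7.58 in vehicle-labelled brains, against 6.18, 6.39 and 6.90 in model-labelled brains and 6.39, 6.39 and 6.83 in sham brains. Here the model and sham arrays overlapped (difference 1.42 ± 0.23, adjusted p = 0.0778), and without vehicle 2 and sham 5 Nefh was called higher (1.23, adjusted p = 0.0316). The 12 lowest by the same rule were Npas4, Egr2, Inhba, Stc1, Tfpi2, Nr4a1, Fos, Ccn1, S100a11, Junb, Bdnf and Lif. S100a11, a calcium-binding protein gene, differed by -1.77 ± 0.40 and was the 1 of these 12 whose model arrays overlapped sham.

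**Figure D4:**
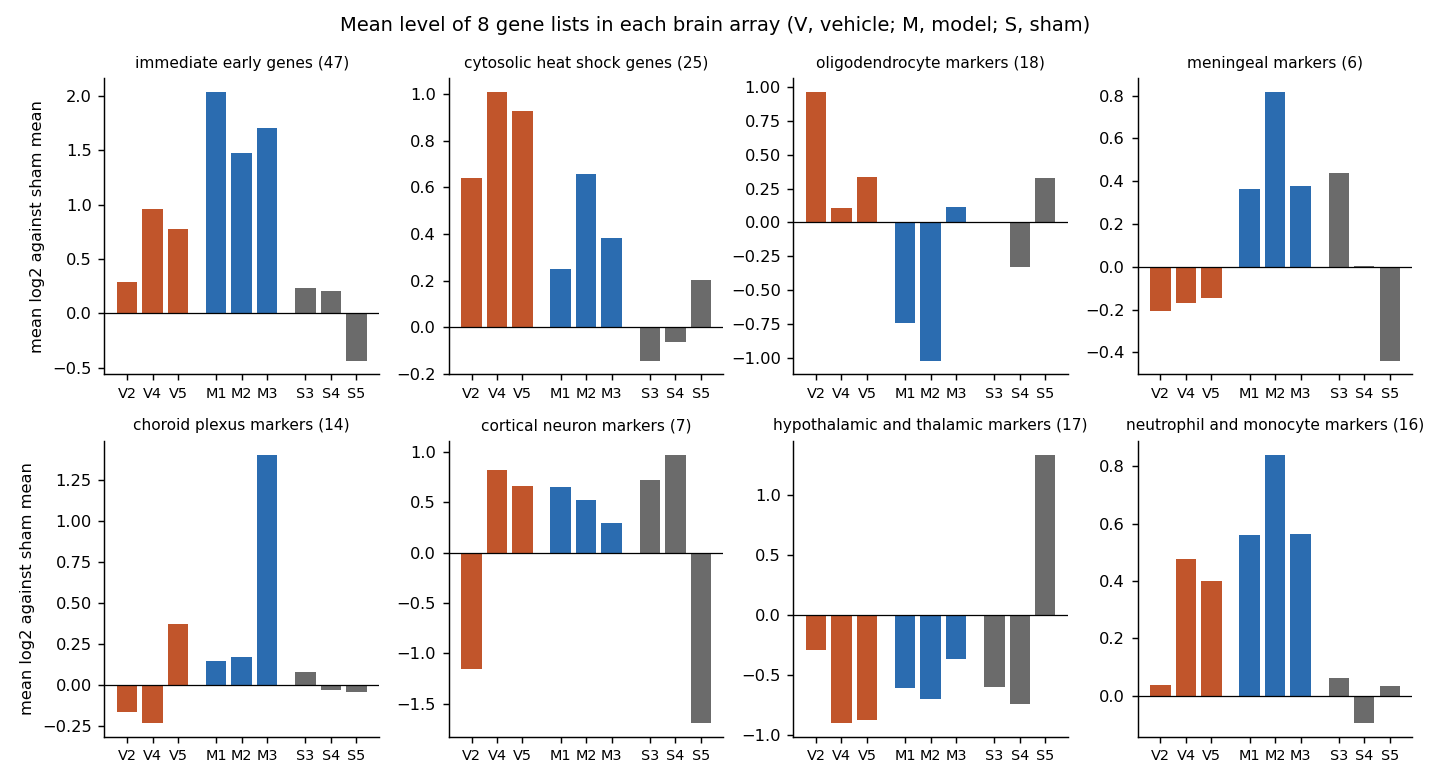
Mean log2 level of 8 gene lists in each brain array relative to the mean of the sham brains (vertical axes, a separate range for each list; number of genes in parentheses), for vehicle-labelled (V), model-labelled (M) and sham (S) rats by their numbers. The early genes are high in all model brains, the choroid plexus markers are highest in model 3, and cortical neuron markers are low in V2 and S5.

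Markers of brain regions and of other cells differed between arrays. Choroid plexus markers had a median of -0.66, but their mean level relative to sham was -0.17, -0.24 and 0.37 in vehicle-labelled brains and 0.14, 0.17 and 1.41 in model-labelled brains, so that model 3 stood apart, and without model 3 the median was -0.20. Cortical neuron markers had a median of -0.45, of -0.005 without vehicle 2, -0.23 without model 1 and -0.20 without model 2. Median differences were -0.19 for cerebellar and hindbrain and -0.35 for interneuron markers. Those of the striatal, hypothalamic and thalamic, hippocampal, ependymal, astrocyte, red cell and lymphocyte lists lay between -0.17 and 0.05, and each turned its direction or moved by over 1.5 times when 1 array was left out, so no direction is given for them. The striatal median, for example, was -0.12 with all arrays, 0.04 without vehicle 2, 0.24 without model 3 and -0.46 without vehicle 4. No member of these lists was called. Gfap, the intermediate filament of reactive astrocytes, differed by 0.53 ± 0.23 with overlapping arrays. The reactivity genes of the astrocyte list ran both ways, from -0.30 ± 0.19 for Steap4 to 0.57 ± 0.88 for Serpina3n, also with overlapping arrays. Among the remaining process lists the median was -0.19 for cholesterol synthesis genes. It lay between -0.16 and 0.07 for glucocorticoid-induced, p53 and growth arrest, interferon-stimulated, EGF receptor ligand and glutamate and GABA receptor genes, and for each of these leaving out 1 array turned it or moved it by over 1.5 times.

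The same rats gave white blood cells and spleen, which allowed the brain differences to be set against those of the periphery in a single fit over the 27 arrays. The brain difference departed from the white cell difference in 56 genes (0.386%), 44 below (0.303%) and 12 above 0 (0.0827%), and from the spleen difference in 87 genes (0.600%), 29 below and 58 above 0. With the rat as a block the first count was 110. Among the 47 immediate early genes 13 were called against white cells and 12 against spleen, all below 0. These counts stand beside 44 and 29 called below 0 among all 14506 genes. Of the 8 genes called in brain, 5 differed from white cells and 6 from spleen. The 8 genes were selected by their brain difference, which also enters this test. Their counts are therefore no independent support for a difference confined to brain. Egr2 differed by -0.05 ± 0.11 in white cells and -0.23 ± 0.15 in spleen, and the brain difference minus these was -2.54 ± 0.32 (adjusted p = 0.000628) and -2.37 ± 0.32 (adjusted p = 0.00104). For Lif the white cell and spleen differences were -0.18 ± 0.12 and -0.05 ± 0.16. Plscr2 differed by -0.38 ± 0.18 in white cells and -0.88 ± 0.26 in spleen, and the brain value was not separated from either by the test (adjusted p = 0.128 and 0.318). Enpp3 differed by 0.93 ± 0.28 in white cells and -0.86 ± 0.28 in spleen, and its brain difference departed from that of white cells (adjusted p = 0.0197) but was not separated from that of spleen (adjusted p = 0.753). None of the 8 genes was called within white cells or spleen alone. Without single rats the 56 and 87 ranged from 11 (vehicle 2) to 50 (vehicle 5) and from 7 (model 1) to 686 (vehicle 5), and leaving out any of the 6 rats moved at least 1 of the counts by over 1.5 times.

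**Figure D5:**
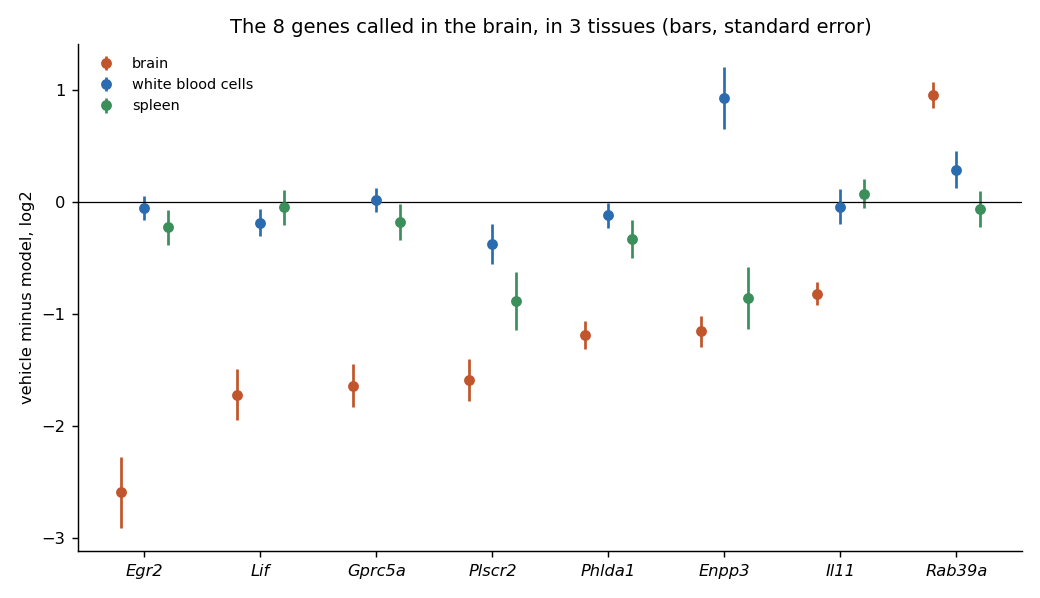
Difference between vehicle-labelled and model-labelled rats (vertical axis, log2) of the 8 genes called in brain, in brain, white blood cells and spleen from the same 6 rats; points are differences of means of 3 arrays and bars are standard errors of the fit of each tissue. The white cell and spleen values lie near 0 for Egr2, Lif, Gprc5a and Il11, and farther from 0 for Plscr2 in spleen and for Enpp3 in white cells and spleen.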

How the data were processed

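The deposited values are log2 intensities from Affymetrix rat Gene 1.0 arrays, which the authors processed with RMA (background correction, normalization between arrays, probe summary), per the submitters' processing notes; the version and whether tissues were normalized together are not given in the sources used here. The log2 scale was inferred from the values (lowest 1.53, highest 13.49, medians of arrays 4.96 to 5.31). No further normalization was applied.

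Groups and rat numbers came from the titles. The number 2 occurs in vehicle and in model and marks different rats. Brain, white cells and spleen of equal group and number were taken as 1 animal, from the titles; the correlation across genes of their residuals, brain with another tissue, lay between -0.058 and 0.156.

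Probes with several symbols (323) or no listed gene (11963) were left out, and for the 527 genes measured by more than 1 probe the brightest, by its mean over 27 arrays, was kept. The 9 brain arrays were fitted in limma 3.58.1 (R 4.3.3) with a mean per group, lmFit and eBayes, 2-sided, with Benjamini-Hochberg adjustment over 14506 genes and an adjusted p under 0.05 as the threshold. Tissue differences were fitted over 27 arrays. Of 581 symbols in 32 gene lists 524 were measured, 5 by a synonym. The comparison, members, lists and tests were chosen with earlier results of these data known. Named genes are all called genes, the 12 largest differences each way at an unadjusted p under 0.01 without overlap, the 4 members of smallest p in each list, markers that define a cell type, and members of the immediate early, IL-6 and heat shock lists. Precision is limited by having 3 arrays in each group. The fit was tested on simulated data, and the outcome of that test is not given here. Positions are not given because no genome of the array's annotation was used here.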

Additional observations from a re-analysis of the deposited data

Results flagged for a closer look

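For the genes below the difference between vehicle-labelled and model-labelled rats was not the same in brain as in another tissue, by a test of the difference itself in limma over 27 arrays (adjusted p between 0.000628 and 0.0457). The genes were drawn from the named genes, many of which were picked by their brain difference or its p. Since that difference enters the test, their listing is no independent support for a difference confined to brain. Values are the brain difference minus that of the other tissue, log2. Against white blood cells they were -2.54 for Egr2, -2.72 for Npas4, -2.57 for Inhba, -2.29 for Stc1, -2.18 for Fos, -1.97 for Nr4a2, -1.73 for Junb, -1.68 for Bdnf, -1.61 for Dusp1, -1.55 for Egr4, -1.54 for Nr4a3, -1.54 for Nptx2, -1.10 for Fosl2 and -1.07 for Phlda1. They were also below 0 for Gprc5a (-1.66), Lif (-1.54), Pim1 (-1.21), Timp1 (-1.98), Apold1 (-1.79), Procr (-1.60) and Edn1 (-0.88), and above 0 for Gpd1 (1.88) and Nefh (1.57).

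The same value was -3.73 for Ngp, -2.83 for Aqp1 and -2.08 for Enpp3, whose differences within white cells were 3.28, 2.11 and 0.93. Ngp encodes a neutrophil granule protein, and Aqp1 a water channel of red cells and choroid plexus.

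Against spleen the values were -2.88 for Npas4, -2.62 for Inhba, -2.37 for Egr2, -2.11 for Stc1, -1.99 for Fos, -1.91 for Bdnf, -1.78 for Junb, -1.74 for Nptx2, -1.61 for Dusp1, -1.45 for Egr4, -1.37 for Dusp5, -1.03 for Fosl2 and -0.86 for Phlda1. They were -1.67 for Lif, -1.49 for Il1a, -1.46 for Gprc5a, -1.42 for Apold1, -1.07 for Pim1 and -0.89 for Il11. Positive values were found for Gpd1 (1.66), Cnp (1.61), Cryab (1.52), Nefh (1.45) and Rab39a (1.02).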

How the results depend on the processing

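The count of 8 called genes in brain was 0 in a fit of the 6 arrays alone (2190 genes at an unadjusted p under 0.05), 346 over 27 arrays, 13 after quantile normalization, 38 over all probes, 123 with array weights, 55 at an adjusted p under 0.10 and 63 without vehicle 2 and sham 5. Leaving out 1 array gave between 0 and 40. Median centring, a filter at the 40th percentile, the mean of all probes, a variance trend with a robust prior and a limit of 1 log2 unit gave 7, 9, 8, 12 and 6. Each of the 8 genes kept its sign under every alternative and its call in 10 to 14 of 20 or 21, including 1 to 3 of 9 that left out an array, with adjusted p up to 0.176. No paired analysis was possible for the brain comparison because vehicle and model share only the number 2, which is not the same rat. For the tissue differences the rat was used as a block: the counts of 56 (white cells) and 87 (spleen) became 110 and 78 with this replicate block. With 12 arrays they were 93 and 8, at an adjusted p under 0.10 they were 132 and 249, and without 1 rat they ranged from 11 to 50 and from 7 to 686. The cause of these shifts was not tested.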

Other observations

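Over all 27596 probes, 38 were called in brain, and 18 of them carry no single gene symbol and are not named here. In white blood cells 226 genes were called between vehicle-labelled and model-labelled rats, and in spleen 0 (limma; 1872 at an unadjusted p under 0.05). Red cell markers had a median difference of 1.47 in white blood cells, beside -0.03 in brain.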
